A study of Mus musculus with 21 samples.

Results

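The glutathione, glucuronide and sulfate transferases comprised 66 protein-coding genes, defined as those whose symbol begins with Gst (23 genes), Ugt (22 genes) or Sult (21 genes), of 21808 protein-coding genes in the tables. They were measured by RNA-Seq in polymorphonuclear neutrophils (PMNs) and renal tubular epithelial cells (TECs) of wildtype mice 24 hours after sham surgery or renal ischemia-reperfusion injury (IRI). The mice were male, on the C57BL/6 background and between 8 and 12 weeks old. IRI was made by clamping the renal pedicles for 32 minutes, and in the RIPC groups surgery followed remote ischemic preconditioning (RIPC), which was 3 cycles of 5 minutes of hind limb ischemia with a cuff at 200 mmHg. The control groups had the same surgery after a cuff inflation that did not restrict blood flow. By the labels PMNs came from blood and TECs from kidney tissue, and RNA was taken from sorted cells. The 8 groups held 2 libraries of PMNs after sham surgery, 3 after sham surgery with RIPC, 2 after IRI and 3 after IRI with RIPC, and 3, 3, 2 and 3 libraries of TECs in the same order. The labels number the libraries but name no animal for each, so that a p-value measures the spread between these libraries.

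These enzymes carry out the conjugation step of detoxification. Glutathione S-transferases join the tripeptide glutathione to reactive compounds, UDP-glucuronosyltransferases join a sugar from a UDP-activated donor, and sulfotransferases join a sulfate from an activated carrier. The proximal tubule, the part of the nephron that takes up and secretes most organic solutes, is known for expressing many of them. The Ugt1a genes are a special case, since each has a first exon and promoter of its own and all share the remaining exons.

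Sequences around the start of transcription are shown for members that differed most clearly after IRI in TECs, so that elements known from detoxification and tubule genes can be looked for. They run from 250 bases before to 50 bases after the RefSeq transcription start (build GRCm38.p6), 5′ to 3′ on the strand of the gene. Capitals mark matches, on either strand, to the antioxidant response element core TGACNNNGC, the xenobiotic response element core GCGTG or the HNF1 site GTTAATNAT. The first 3 sequences belong to members with the smallest p-values in the comparison of IRI with sham surgery that had an entry. Gsta3, which fell, and Gstm5, an abundant member that did not pass the test, were added after their values were seen, as members that hold the first of these motifs.
Ugt1a8 (chr1:88087578-88087877, plus strand): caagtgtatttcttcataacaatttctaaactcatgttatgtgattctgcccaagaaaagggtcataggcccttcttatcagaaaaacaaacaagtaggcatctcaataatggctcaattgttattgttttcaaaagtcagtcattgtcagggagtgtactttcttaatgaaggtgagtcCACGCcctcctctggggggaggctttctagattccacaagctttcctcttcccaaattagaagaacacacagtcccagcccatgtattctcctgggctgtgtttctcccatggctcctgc
Ugt2b38 (chr5:87424154-87424453, minus strand): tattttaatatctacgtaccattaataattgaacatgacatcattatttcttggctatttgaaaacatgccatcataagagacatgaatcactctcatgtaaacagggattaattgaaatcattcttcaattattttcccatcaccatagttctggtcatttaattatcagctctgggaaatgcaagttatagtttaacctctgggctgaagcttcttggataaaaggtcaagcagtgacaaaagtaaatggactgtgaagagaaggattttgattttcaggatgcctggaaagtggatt
Gstm4 (chr3:108044810-108045109, minus strand): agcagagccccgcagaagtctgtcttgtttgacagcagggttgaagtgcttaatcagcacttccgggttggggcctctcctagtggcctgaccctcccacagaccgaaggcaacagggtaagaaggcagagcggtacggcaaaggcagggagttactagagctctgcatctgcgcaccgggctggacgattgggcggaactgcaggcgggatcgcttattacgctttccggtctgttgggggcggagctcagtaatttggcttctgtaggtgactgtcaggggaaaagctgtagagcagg
Gsta3 (chr1:21240335-21240634, plus strand): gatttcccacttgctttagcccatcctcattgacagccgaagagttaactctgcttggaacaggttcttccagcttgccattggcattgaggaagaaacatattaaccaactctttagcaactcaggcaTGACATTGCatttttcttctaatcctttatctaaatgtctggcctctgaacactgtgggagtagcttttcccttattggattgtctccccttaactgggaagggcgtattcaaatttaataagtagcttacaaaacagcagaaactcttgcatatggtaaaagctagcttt
Gstm5 (chr3:107895604-107895903, plus strand): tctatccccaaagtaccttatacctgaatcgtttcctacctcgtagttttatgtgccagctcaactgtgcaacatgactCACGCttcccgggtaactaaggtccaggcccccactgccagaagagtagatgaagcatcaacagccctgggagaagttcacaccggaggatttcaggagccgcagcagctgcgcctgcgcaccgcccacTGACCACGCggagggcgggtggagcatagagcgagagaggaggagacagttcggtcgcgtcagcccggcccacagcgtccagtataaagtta
Ugt3a2 is named only. The xenobiotic response element core of Ugt1a8 began 70 bases before the start, and the antioxidant response element core of Gsta3 began 121 bases before it. In Gstm5 the antioxidant response element core began 42 bases before the start and overlapped a xenobiotic response element core that began 38 bases before it. The windows of Ugt2b38 and Gstm4 held none of these letters.

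Of the 66 members, 58 had at least 1 promoter entry. The antioxidant response element core was found in 3 of them (Gsta3, Gstm5 and Gstm7), the xenobiotic response element core in 13 and the HNF1 site in 8. Some members had more than 1 window, and of their 70 windows 4.29%, 21.4% and 11.4% held these motifs in the same order. Among all 32851 promoter windows of the same length, 12.4%, 32.4% and 0.801% held them. The 8 members with the HNF1 site were Ugt1a1, Ugt1a9, Ugt1a10, Sult1d1, Sult2a3, Sult2a4, Sult2a5 and Sult2a6. Several of these are neighbours with related sequence, and a match of letters is a description and not evidence of binding.

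Library depth was between 20881334 and 51624602 reads. TECs held transcripts of the proximal tubule, with summed marker levels of 3041 to 5056 TPM (reads per transcript length, scaled to the same total in each library) in the 6 sham libraries and 534 to 1881 TPM in the 5 IRI libraries, and all 12 markers were detected. Their 10 neutrophil markers summed to 0.395 to 8.88 TPM after sham surgery and 11.0 to 90.9 TPM after IRI, without overlap. Tubular injury markers summed to 496 to 3460 TPM and 1176 to 7400 TPM, and erythrocyte markers to 8.28 to 1052 TPM and 115 to 1336 TPM, in the same order. The libraries labelled PMNs held neutrophil markers at 9461 to 45590 TPM, with 1 of the 10 at 0 in all sham libraries, but also proximal tubule markers at 193 to 1482 TPM after sham surgery and 96.3 to 165 TPM after IRI, and macrophage markers at 1738 to 5960 TPM after sham surgery and 323 to 1015 TPM after IRI. Distal tubule and collecting duct markers summed to 50.0 to 1062 TPM in PMNs after sham surgery and 14.0 to 162 TPM after IRI. In TECs they summed to 40.5 to 171 TPM and 22.2 to 99.2 TPM in the same order. Among PMN libraries, both tubule sums were highest in replicate 2 of the sham control group. In bulk libraries such as these, fewer cells of a type and less RNA per cell cannot be told apart. In TECs, replicate 1 of the sham control group held the injury gene Havcr1 at 15.5 TPM against at most 0.217 TPM in the other sham libraries, and replicate 3 of the IRI group with RIPC held it at 15.45 TPM against 90.6 to 142 TPM in the other IRI libraries, so that results in TECs are also given without these 2 libraries.

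Levels were first compared between members on the TPM scale, with a member counted as expressed in a cell type where its mean over all libraries of that type was at least 1 TPM. TECs expressed 39 members (19 Gst, 14 Ugt and 6 Sult) and PMNs expressed 32 (16 Gst, 11 Ugt and 5 Sult), with 30 in common. The other 25 members were below this level in both. The 12 most abundant members held between 87.9% and 91.0% of the summed level of all members in each TEC library and between 75.1% and 89.8% in each PMN library, and 10 of the 12 were shared. In TECs these were Gsta2, Gstt2, Gstp1, Gstm5, Gstm1, Ugt2b38, Sult1d1, Ugt3a2, Gstt1, Gstz1, Gsto1 and Ugt1a7c, in falling order. In PMNs they were Gstp1, Gstm1, Gsta2, Gstm5, Ugt1a7c, Gsto1, Gstt2, Ugt2b38, Ugt3a1, Ugt3a2, Sult2a8 and Gstz1.

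**Figure D1:**
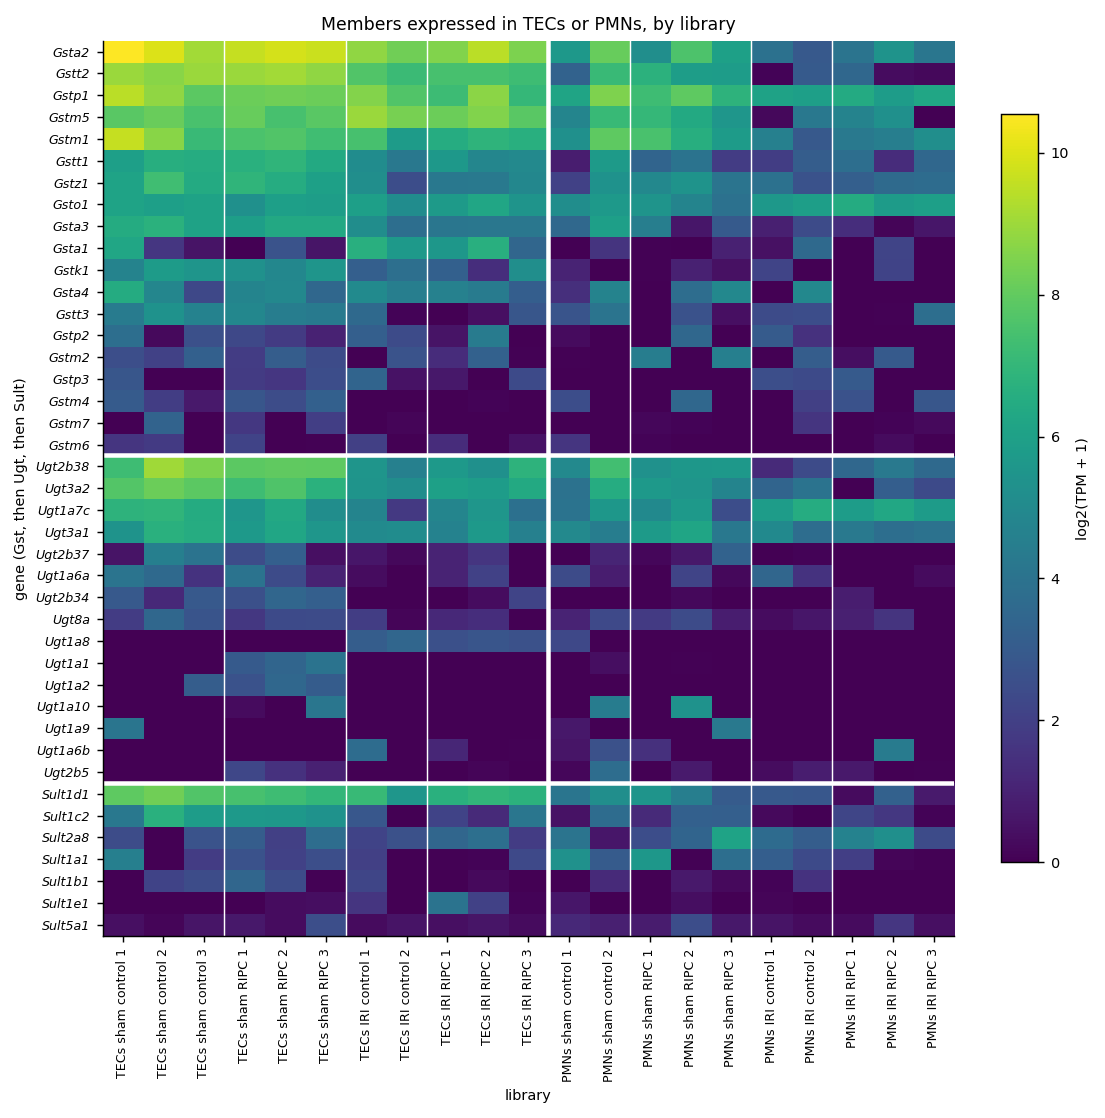
Heat map of the level, as log2(TPM + 1), of the 41 members expressed in TECs or PMNs (rows, by family and then by mean level in TECs) in each of the 21 libraries (columns, with thin white lines between groups and thick lines between families and cell types). Gsta2, Gstt2, Gstp1, Gstm5 and Gstm1 at the top of the map were present in all TEC libraries, while Ugt1a8, Ugt1a1 and Ugt1a2 were read in only some groups of TECs.

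Gsta2, an alpha class glutathione transferase, was the most abundant member of TECs by the mean over all libraries, while in the IRI control group Gstm5 was higher, at 409.8 TPM. The level of Gsta2 was 1017 TPM ± 478 (SD, n = 3) in the sham control group, 847 TPM ± 69.2 (n = 3) after sham surgery with RIPC, 374 TPM ± 101 (n = 2) after IRI and 473 TPM ± 194 (n = 3) after IRI with RIPC. In PMNs it was 161 TPM ± 160 (n = 2), 97.0 TPM ± 83.0 (n = 3), 10.6 TPM ± 5.4 (n = 2) and 24.4 TPM ± 14.4 (n = 3) in the same order. The SDs of neighbouring groups within a cell type overlapped, apart from the step between the TEC groups after sham surgery with RIPC and after IRI. Gsta2 shares 36.0% of its stretches of 50 bases, the read length, with Gsta1, so that the division of reads between them is uncertain.

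Gstp1, the pi class enzyme, was the most abundant member of PMNs by the mean over all libraries, at 218 TPM ± 207 (n = 2) in the sham control group, 169 TPM ± 66.9 (n = 3) after sham surgery with RIPC, 63.8 TPM ± 3.83 (n = 2) after IRI and 72.4 TPM ± 15.3 (n = 3) after IRI with RIPC. In TECs Gstp1 was at 456 TPM ± 229, 292 TPM ± 9.76, 296 TPM ± 131 and 233 TPM ± 164 in the same order, with the same n as for Gsta2, and these 4 groups overlapped. Among the Ugt genes, Ugt2b38 led in TECs after sham surgery, at 345 TPM ± 189 and 241 TPM ± 6.74 in the sham groups without and with RIPC and had 33.7 TPM ± 14.8 and 66.4 TPM ± 39.8 after IRI, where Ugt3a2 had means of 38.8 and 67.8 TPM. In PMNs Ugt1a7c led the Ugt genes after IRI and by the mean over all libraries, at 30.8 TPM ± 22.1 and 28.7 TPM ± 22.8 after sham surgery and 74.0 TPM ± 25.5 and 62.8 TPM ± 14.2 after IRI. The means after sham surgery were higher for Ugt2b38 (95.6 and 44.9 TPM without and with RIPC) and Ugt3a2 (52.5 and 40.0 TPM). In the IRI control PMNs the mean of Ugt1a7c also stood above that of Gstp1. Among the sulfotransferases, Sult1d1, which sulfates catecholamines, led in TECs at 250 TPM ± 52.5, 152 TPM ± 26.3, 91.5 TPM ± 65.4 and 111 TPM ± 8.6 in the order of groups used above. Sult2a8 had the highest Sult mean of PMNs over all libraries, at 18.4 TPM ± 20.5 (n = 10), a place that rested on replicate 3 of the sham group with RIPC at 68.0 TPM. Without this library the mean of Sult2a8 was 12.9 TPM and that of Sult1d1 15.4 TPM.

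Summed over each family, the Gst genes held 1987 to 4233 TPM in the sham libraries of TECs and 1148 to 2076 TPM in the IRI libraries. The Ugt genes held 483 to 1082 TPM and 108 to 243 TPM, and the Sult genes 190.2 to 413 TPM and 51.3 to 158 TPM. The Ugt and Sult sums of the 2 surgeries did not overlap, whereas the Gst sums did. Ugt1a2 was the only member that was expressed in 1 cell type and had no read in any library of the other, at a mean of 2.80 TPM in TECs. Its reads came from 4 TEC libraries, replicate 3 of the sham control group and all 3 libraries after sham surgery with RIPC. Ugt1a2 shares 63.7% of its stretches of 50 bases with Ugt1a5, so that the division of reads between Ugt1a genes is uncertain. The PMN libraries held 1746 to 8410 reads of the Ugt1a genes together.

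The comparison of IRI with sham surgery in TECs asked which conjugating enzymes change in injured tubules. After IRI, 6 members fell (Ugt2b38, Ugt3a2, Gstm4, Gstz1, Ugt2b34 and Gsta3) and 1 rose (Ugt1a8). Each gene was tested in edgeR by its quasi-likelihood method, with Benjamini-Hochberg adjustment over all 25917 genes tested, and the log2 fold changes below come from that fit. These were 7 of the 52 members tested, where 1.4% of all genes passed in either direction, and the 6 that fell compare with 1.15% of all genes that fell. By family, 3 of 21 Gst genes, 4 of 16 Ugt genes and 0 of 15 Sult genes passed. At an unadjusted p under 0.05, which 15.0% of all genes had, these numbers were 9, 10 and 4. For 8 of the 52 members and 4.58% of all genes, the IRI and sham libraries did not overlap. The log2 fold change was below 0 for 37 of the 52 members, with a median of -0.85, where the median of all genes tested was 0.15. Proximal tubule markers were lower and neutrophil markers higher in every IRI library of TECs than in the sham libraries, as given above, and their part in these differences was not tested. When data with known changes were simulated for this comparison, unchanged genes were called more often than the threshold allows, so that adjusted p-values in TECs may be too small.

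Among the glutathione transferases, Gstm4, a mu class enzyme (chromosome 3, 108040408 to 108044894, minus strand, GRCm38), was read in all 6 sham libraries, at 2.07, 16.8 and 24.8 CPM (reads per library size, scaled by the trimmed mean of M values, TMM) as the lowest, median and highest values. The 5 IRI libraries held 2 reads of it in all, both in replicate 2 of the group with RIPC. The groups did not overlap, and the ratio of the means was 828, with a 95% counting interval from 229 to 6837 that covers counting error of the 2 reads only (adjusted p = 0.0205). Gstm4 had no stretch of read length in common with another gene.

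Gstz1, the isomerase of tyrosine breakdown also known as maleylacetoacetate isomerase (chromosome 12, 87147165 to 87164723, plus strand), had 170.0, 227 and 393 CPM as the lowest, median and highest values after sham surgery. After IRI it had 80.8 and 22.5 CPM in the control group and 50.9, 34.0 and 81.2 CPM with RIPC. Every IRI library lay below every sham library, and the log2 fold change was -2.27 ± 0.46 (SE; adjusted p = 0.0289). Gsta3, an alpha class enzyme (chromosome 1, 21240589 to 21265661, plus strand), had 123, 173 and 217 CPM after sham surgery. Its IRI libraries had 79.3 and 30.5 CPM without RIPC and 30.6, 34.4 and 48.6 CPM with it. Its groups did not overlap either, at a log2 fold change of -1.90 ± 0.42 (adjusted p = 0.0397).

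Other abundant Gst genes did not pass. The theta class gene Gstt2 came nearest, at 531, 657 and 939.9 CPM after sham surgery and 363, 305, 240.5, 244 and 285 CPM after IRI (log2 fold change -1.22 ± 0.29, adjusted p = 0.0534). Its groups did not overlap, and those of Gstt1, of the same class, did not either (log2 fold change -1.47 ± 0.38, adjusted p = 0.0803). The differences were -1.11 ± 0.35 for Gsta2, -1.38 ± 0.47 for Gstm1 and -0.48 ± 0.41 for Gstp1. Gstm5 was the only one of the 12 most abundant members of TECs with a difference above 0, at 259, 348 and 423 CPM after sham surgery and 734, 582, 358, 462 and 398 CPM after IRI (log2 fold change 0.59 ± 0.29, adjusted p = 0.357). Gsto1, an omega class enzyme that reduces dehydroascorbate, had a mean of 111 CPM ± 26.3 (n = 6) after sham surgery and 101 CPM ± 14.3 (n = 5) after IRI (log2 fold change -0.13 ± 0.36).

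**Figure D2:**
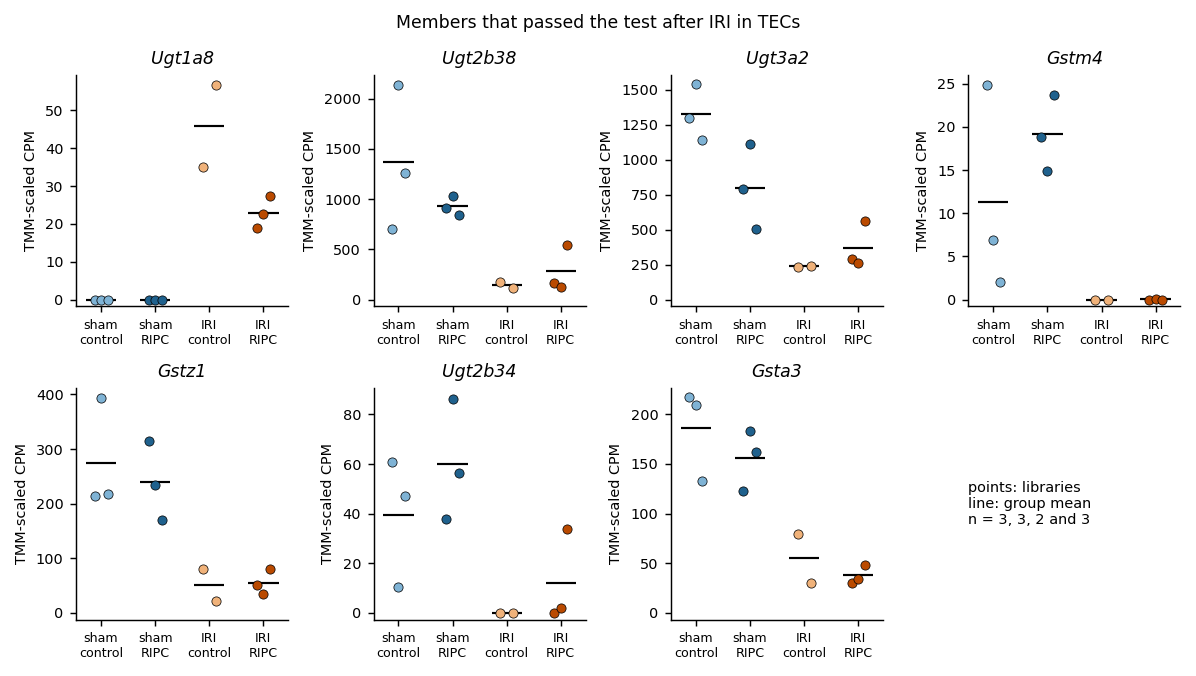
TMM-scaled CPM (vertical axis, linear) of the 7 members that passed the test of IRI against sham surgery in TECs, for each library (points) of the 4 groups of TECs with the group mean (line). The Ugt1a8 panel has all 6 sham libraries at 0, and the panels of Gstm4, Gstz1, Gsta3 and Ugt2b38 have every IRI library below every sham library.

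Among the UDP-glycosyltransferases, Ugt2b38 (chromosome 5, 87409942 to 87424203, minus strand) had 698, 971 and 2140 CPM as the lowest, median and highest values after sham surgery. After IRI it had 180.1 and 117 CPM without RIPC and 168, 129.5 and 548 CPM with it. The groups did not overlap, and the log2 fold change was -2.46 ± 0.45 (adjusted p = 0.0169). Ugt2b38 shares 37.4% of its stretches of 50 bases with other members, mainly Ugt2b5, and with reads of Ugt2b37, Ugt2b38 and Ugt2b5 added together the log2 fold change was -2.49 ± 0.45 (adjusted p = 0.0161). Ugt2b34 (chromosome 5, 86889767 to 86906937, minus strand), of the same subfamily, had 10.3, 51.7 and 86.4 CPM after sham surgery. It had no read in the 2 IRI libraries without RIPC, and 2, 40 and 719 reads in those with RIPC, of which the last, in replicate 3, stood at 33.9 CPM and within the sham range (log2 fold change -7.63 ± 1.62, adjusted p = 0.0380).

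Ugt3a2, of a family that uses other sugars than glucuronic acid (chromosome 15, 9335550 to 9370955, plus strand), had 503, 1124 and 1542 CPM after sham surgery. After IRI it had 234.9 and 239 CPM without RIPC and 287, 258 and 559 CPM with it. Replicate 3 of the IRI group with RIPC exceeded the lowest sham library, while the other 4 IRI libraries lay below all 6 (log2 fold change -1.80 ± 0.33, adjusted p = 0.0182). Its neighbour in sequence Ugt3a1, which uses N-acetylglucosamine, did not pass, at a log2 fold change of -2.32 ± 0.63 (adjusted p = 0.0954).

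Ugt1a8 (chromosome 1, 88087813 to 88219004, plus strand) was the member that rose. It had 0 reads in all 6 sham libraries. The IRI libraries held 866 and 1188 reads in the control group and 488, 493 and 580 reads in the RIPC group. The mean after IRI was 32.1 CPM ± 15.0 (n = 5, adjusted p = 0.00274 in edgeR). It was 272 times the value of 3 reads per sham library, taken as the limit of counting error for a count of 0. This limit does not cover the division of reads between Ugt1a genes, so that the ratio is not a lower bound. Ugt1a8 shares 59.7% of its stretches of 50 bases with other Ugt1a genes, and 52.1% to 79.8% of those of each Ugt1a gene are shared within the locus, so that reads of the common exons were divided between these genes by the authors' quantification.

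Added over the 9 Ugt1a genes, the locus went in the other direction. It had 300, 440 and 732 CPM as the lowest, median and highest values after sham surgery and a mean of 166 CPM ± 70.9 (n = 5) after IRI, with 244 CPM as the highest IRI library. The groups did not overlap, and the log2 fold change of the sum was -1.48 ± 0.38 (adjusted p = 0.0806, and 0.0807 where the other members that share sequence were added as well). Ugt1a7c carried most of the reads of the locus in TECs, at 123 to 544 CPM after sham surgery and 22.1 to 199 CPM after IRI (log2 fold change -1.64 ± 0.49, adjusted p = 0.129). Ugt1a1, which conjugates bilirubin, had reads in the 3 libraries after sham surgery with RIPC and in no other TEC library.

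**Figure D3:**
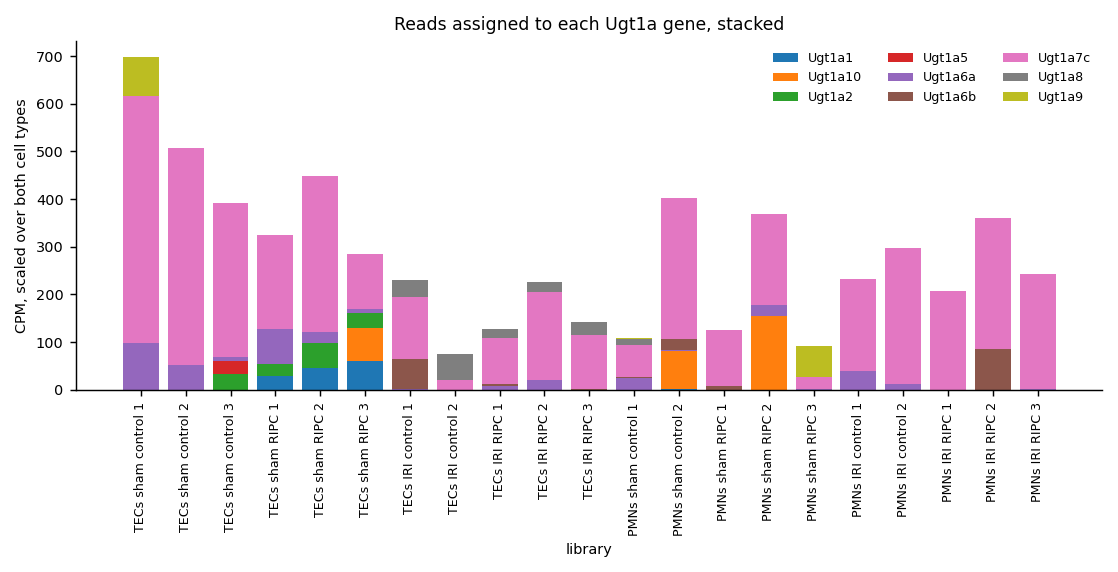
Stacked bars of the CPM, scaled over both cell types, assigned to each of the 9 Ugt1a genes in each of the 21 libraries (horizontal axis). Ugt1a7c is the largest part of most bars, Ugt1a8 is present in the 5 IRI libraries of TECs and in 1 sham library of PMNs, and the TEC bars are lower after IRI than after sham surgery.

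None of the 15 sulfotransferases tested in TECs passed, and 4 had an unadjusted p under 0.05. With DESeq2's Wald test, which passed 8.62% of all genes, 2 passed, Sult1c2 below and Sult1e1, the estrogen sulfotransferase, above the sham groups. The abundant Sult1d1 had 538, 912 and 1637 CPM as the lowest, median and highest values after sham surgery and 723, 306, 439, 518 and 692 CPM after IRI, with overlap (log2 fold change -0.90 ± 0.32, adjusted p = 0.224).

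Shares of all genes are not given for the fits with 1 library left out, so their counts are not read as results about the members. The number of members that passed in TECs depended on single libraries. Without replicate 2 of the sham control group or replicate 2 of the sham group with RIPC it was 1 (Ugt1a8), without replicate 1 of the sham group with RIPC it was 2, and without replicate 3 of either sham group it was 4. Without replicate 1 of the IRI control group it was 13. Leaving out each library in turn, Ugt1a8 passed in 11 of 11 fits (highest adjusted p = 0.0236), Ugt2b38 in 9 (highest 0.0622), Ugt3a2 in 8 (highest 0.0664), Gstm4 in 6 (highest 0.0612), Gstz1 in 6 (highest 0.111), Ugt2b34 in 6 (highest 0.115) and Gsta3 in 3 (highest 0.258). Without the 2 libraries that stand apart, all 7 passed and 3 others with them (Ugt3a1, Gsta1 and Ugt1a2), where 2.96% of all genes did. In an edgeR fit to all 8 groups 0 members and 0.116% of genes passed, where 17 members and 10.5% of genes had an unadjusted p under 0.05. In the groups without RIPC alone 0 members and 0.00386% of genes passed, where 21 members and 8.59% of genes had an unadjusted p under 0.05.

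In PMNs the same comparison addressed whether these genes change in neutrophils. With edgeR, 0 of 51 members passed, where 0.416% of 25002 genes did, and 12 members and 11.8% of genes had an unadjusted p under 0.05. DESeq2's Wald test passed 6 members and 7.77% of genes. The nearest was Ugt2b38, with 80.3, 534, 124, 146 and 150.0 CPM in the sham libraries and 4.06, 13.0, 31.8, 57.2 and 32.2 CPM after IRI. Its groups did not overlap (log2 fold change -3.48 ± 0.63, adjusted p = 0.0677), as was so for 2 of the 51 members and 5.51% of all genes. Gstm1 (-2.54 ± 0.65, adjusted p = 0.194) and Gsta2 (-2.96 ± 0.77, adjusted p = 0.203) followed. Gsto1 and Ugt1a7c had differences above 0, at 0.84 ± 0.47 and 0.73 ± 0.59.

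The level of members in PMNs lay beside that of the proximal tubule markers. Replicate 2 of the sham control group had the highest sum of both, at 1403 TPM for the Gst genes, 363 TPM for the Ugt genes and 1482 TPM for the tubule markers. The other 4 sham libraries had 260.3 to 799 TPM for the Gst genes and 193 to 780 TPM for the tubule markers, and the 5 IRI libraries 192 to 281 TPM and 96.3 to 165 TPM. The part of tubule transcripts in the values of PMNs was not tested. For the fits that follow, no share of all genes is given. Leaving out sham control PMNs replicate 1, 2 members passed (Ugt2b38 and Gstm1, both lower after IRI), and without replicate 2 none did.

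**Figure D4:**
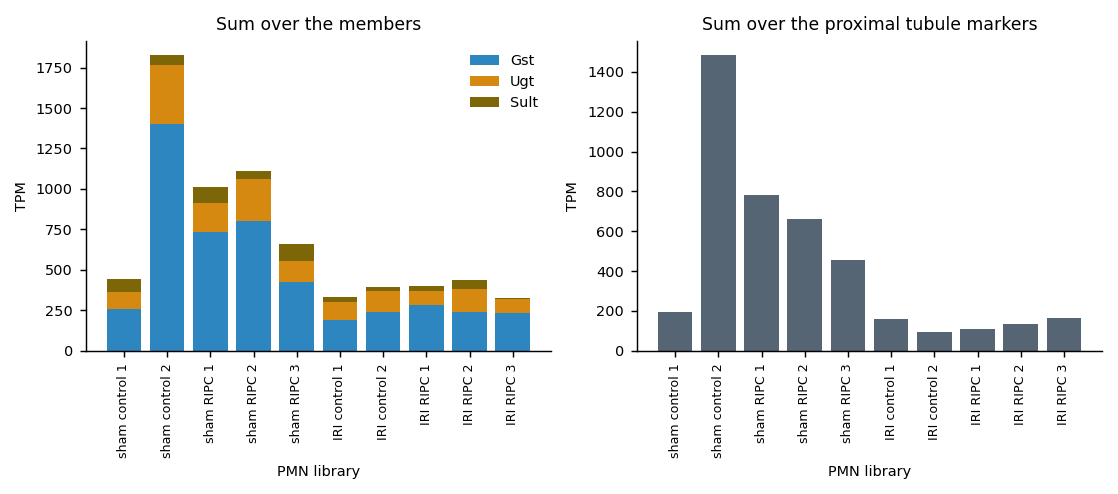
TPM summed over the Gst, Ugt and Sult members (left, stacked) and over the 12 proximal tubule markers (right) in each of the 10 PMN libraries. Replicate 2 of the sham control group has the highest bar in both panels, and the 5 IRI libraries are the lowest 5 in both.

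The difference between IRI and sham surgery was then compared between the cell types. None of the 63 members tested passed this test of the difference (edgeR, 0.0% of 31769 genes passed), with 12 members and 9.76% of genes at an unadjusted p under 0.05. DESeq2's Wald test passed 10 members and 7.54% of genes, among the members Gstm4, Ugt2b34 and Ugt1a7c below 0 and Ugt1a8 above it. For Ugt1a7c the IRI difference was lower in TECs than in PMNs by 2.36 ± 0.84 on the log2 scale (adjusted p = 0.329), and for Gstt2 it was higher by 3.15 ± 1.19 (adjusted p = 0.357). A difference of the responses of TECs and PMNs was thus not detectable for any member with the main test.

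**Figure D5:**
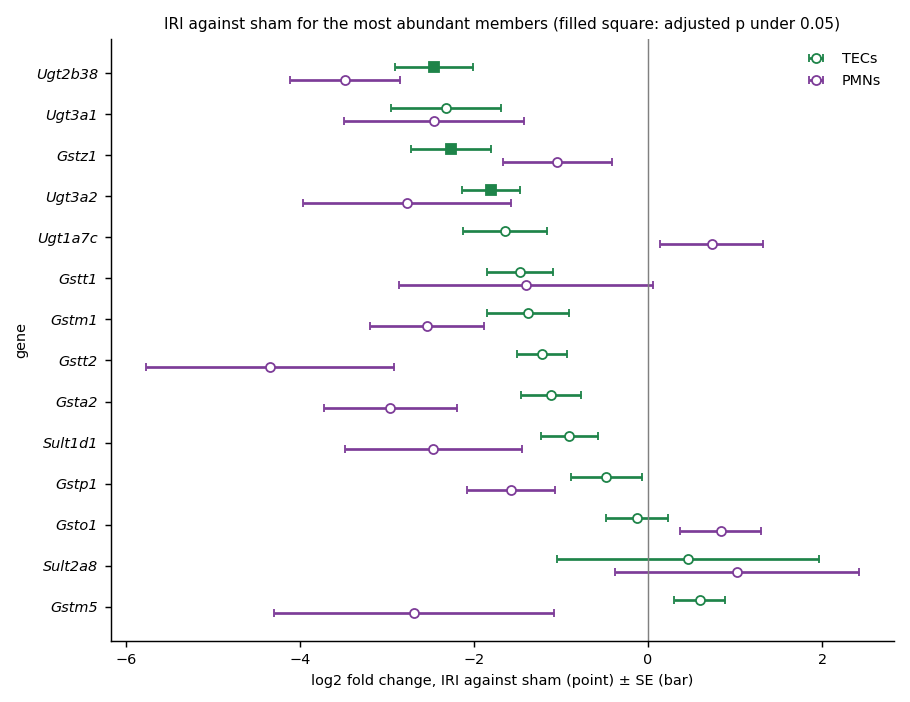
Log2 fold change of IRI against sham surgery (horizontal axis, points) with its standard error (bars) for the 14 members that were among the 12 most abundant in TECs or in PMNs, in TECs (green) and PMNs (purple). Filled squares mark an adjusted p under 0.05, which Ugt2b38, Gstz1 and Ugt3a2 reached in TECs and no member reached in PMNs.

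TECs were next compared with PMNs over all groups. TECs had higher levels of 16 of the 63 members tested (10 of 22 Gst, 4 of 20 Ugt and 2 of 21 Sult genes), and PMNs had higher levels of none with edgeR. At an unadjusted p under 0.05 there were 24 members and 17.8% of genes. Of all genes, 6.87% passed in either direction and 3.95% were higher in TECs. The members were Gsta2, Sult1d1, Ugt2b38, Gstt2, Gstm1, Ugt3a2, Gstp1, Gsta3, Ugt3a1, Gstm5, Gstk1, Gstz1, Gstt1, Ugt2b37, Sult1c2 and Gsta4, in order of p. With DESeq2's Wald test (17.0% of all genes) and without a filter on low counts (7.37% of all genes), Gstm4 and Ugt2b5 were higher in PMNs. Ugt2b5 was so in edgeR without replicate 2 of the TEC group after IRI with RIPC, a fit without a share of all genes. It had 889 reads in sham control PMNs, replicate 2, and at most 65 in any other PMN library. Ugt2b5 shares 41.7% of its stretches of 50 bases with other members. With reads of Ugt2b37, Ugt2b38 and Ugt2b5 added together, TECs were higher in edgeR (log2 fold change 2.73 ± 0.41, adjusted p = 0.000176). By the labels the cell types come from different sources, blood and kidney, while the PMN libraries also held kidney tubule markers. Tissue and cell type cannot be told apart.

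On the CPM scale over both cell types, Gsta2 had 409.5, 723 and 2152 CPM as the lowest, median and highest values in the 11 TEC libraries and 7.36, 41.3 and 303 CPM in the 10 PMN libraries (log2 fold change 4.06 ± 0.45, adjusted p = 6.064e-06). Sult1d1 had 294, 711 and 1475 CPM in TECs and 0.816, 31.95 and 149 CPM in PMNs (4.15 ± 0.57). Gstt2 had 225, 506 and 895.8 CPM in TECs and 0.299, 15.6 and 218 CPM in PMNs (4.00 ± 0.69). Gstm5 had 249, 381 and 722 CPM in TECs and 0, 37.7 and 171 CPM in PMNs (3.37 ± 0.80). These 4 members had every TEC library above every PMN library, as 1.10% of all genes had in either direction. The highest fitted difference was that of Gstk1, the kappa class enzyme of mitochondria and peroxisomes, at 5.21 ± 1.28, with medians of 49.7 and 0.361 CPM.

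The other members that passed had log2 fold changes between 1.48 (Gstz1) and 4.53 (Ugt2b37), and their ranges overlapped. Gsto1 and Ugt1a7c did not pass over all groups (log2 fold change 0.54 ± 0.33 and -0.09 ± 0.41). Their levels by surgery are given as a description. After sham surgery Ugt1a7c had 117 to 519 CPM in TECs and 24.6 to 297 CPM in PMNs, and after IRI it had 21.2 to 184 CPM in TECs and 194 to 285 CPM in PMNs, where every PMN library was above every TEC library. Gsto1 had 67.9 to 145 CPM in TECs and 23.3 to 81.7 CPM in PMNs after sham surgery, and 81.4 to 118 CPM and 61.8 to 144 CPM after IRI. The Ugt1a locus as a sum differed by 0.10 ± 0.35 over all groups, a value pooled over surgeries whose mean differences went opposite ways. It had 286 to 698 CPM in TECs and 90.6 to 403 CPM in PMNs after sham surgery, and 75.6 to 229 CPM and 206 to 359.6 CPM after IRI. The test of the difference between these IRI responses gave -1.71 ± 0.70 (adjusted p = 0.405), and the sum was not tested between the cell types within a surgery. The PMN libraries held proximal tubule markers, as given above, and their part in these values was not tested. With at least 10 counts required in every library, 11 members could be tested and 8 passed, and without the 2 TEC libraries that stand apart 12 passed. The share of all genes is not given for either setting, so these counts are not read as results about the members. In the sham control groups alone (edgeR) 0 members and 0.567% of genes passed, where 15 members and 9.81% of genes had an unadjusted p under 0.05.

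RIPC was compared with control after sham surgery and after IRI in each cell type. No member passed in any of these comparisons with edgeR. In TECs after sham surgery 0.0% of genes passed, and 5 of 52 members and 4.53% of genes had an unadjusted p under 0.05. After IRI 0.00386% of genes passed, and 1 member and 4.35% of genes had such a p. In PMNs after sham surgery 0.004% of genes passed, and 0 of 51 members and 4.6% of genes had such a p. After IRI 0.0% of genes passed in PMNs, and 4 members and 2.72% of genes had such a p. The interaction of RIPC with surgery passed for 0.0% of genes in TECs and 0.0% in PMNs. It had an unadjusted p under 0.05 for 4 members and 7.21% of genes in TECs, and for 2 members and 5.74% of genes in PMNs.

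The smallest p after sham surgery in TECs was that of Ugt1a1. It had 0 reads in the 3 control libraries and 764, 1188 and 1370 reads in the 3 libraries with RIPC, a mean of 47.1 CPM ± 16.7 (n = 3), and the groups did not overlap (adjusted p = 0.708). In this comparison 6 of the 52 members and 7.85% of all genes had groups without overlap. Ugt1a1 passed with DESeq2's Wald test (1.66% of all genes), with DESeq2 and apeglm (0.305%) and without a filter on low counts (0.137%). It also passed without replicate 1 or replicate 2 of the IRI control group, 2 libraries that are not part of this contrast. The reads of Ugt1a1 share 58.2% of stretches with other Ugt1a genes, and the 9 genes together had 8549, 11860 and 6461 reads in these libraries and 16876, 20343 and 10421 reads in the control libraries. The sum differed by -0.62 ± 0.49 on the log2 scale. The next members were Ugt2b5, with 14.5, 7.58 and 3.34 CPM with RIPC and at most 0.0554 CPM in controls, and Ugt2a3, with 0.712, 3.43 and 10.2 CPM with RIPC and no read in controls. Neither passed with edgeR (adjusted p = 0.708 for both), and Ugt2b5 passed with DESeq2's Wald test and with DESeq2 and apeglm. Ugt2b5 shares 41.7% of its stretches of 50 bases with other members, mainly Ugt2b38. With reads of Ugt2b37, Ugt2b38 and Ugt2b5 added together, the difference was below 0, at -0.57 ± 0.54 on the log2 scale.

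After IRI in TECs, the smallest p was that of Ugt2b34 (adjusted p = 0.652), which had no read in the 2 control libraries and 2, 40 and 719 reads with RIPC, so that 1 library held most of its reads. It passed with DESeq2's Wald test (2.7% of all genes) and without a filter on low counts (0.18%), with a lowest adjusted p over the alternatives of 0.000105. Sult1b1 and Sult2a4 followed, each at an adjusted p of 0.778 and at no more than 10.2 CPM in an IRI library. In PMNs after sham surgery the 3 members with the smallest p were Sult1c1, Gstm2 and Sult2a5, all at an adjusted p of 0.705. Gstm2, a mu class enzyme, had 33.1, 0 and 33.2 CPM with RIPC and at most 0.0789 CPM without. In PMNs after IRI they were Ugt2b38, Gsta4 and Sult1b1, all at an adjusted p of 0.92. Ugt2b38 had 4.06 and 13.0 CPM without RIPC and 31.8, 57.2 and 32.2 CPM with it, which did not overlap (log2 fold change 2.24 ± 0.87). In this comparison 8 of the 51 members and 16.5% of all genes had groups without overlap.

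Genes that work with these enzymes were taken from 6 lists. In TECs after IRI, 2 of 15 tested genes of glutathione synthesis and recycling passed. Chac1, which degrades glutathione, had 8.53 to 40.3 CPM in the 5 IRI libraries and no read in the 6 sham libraries (adjusted p = 0.0076). Dpep1, a dipeptidase of the brush border that acts on glutathione conjugates, fell from a mean of 223 CPM ± 91.2 to 69.5 CPM ± 60.8 (log2 fold change -2.23 ± 0.51, adjusted p = 0.0470). Of 13 tested genes of other glutathione transferase families, Clic1, which has a glutathione transferase fold, rose from 107 CPM ± 13.6 to 384 CPM ± 112 (1.86 ± 0.33, adjusted p = 0.0164). Acy3, which deacetylates mercapturic acids, fell from 825 CPM ± 380.2 to 126 CPM ± 174 (-2.95 ± 0.67, adjusted p = 0.0458).

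Of 11 genes of glucuronic acid metabolism and glucuronide hydrolysis, 2 fell. Miox, which opens myo-inositol to glucuronic acid and is also 1 of the 12 proximal tubule markers, had 2562 CPM ± 530.1 after sham surgery and 812 CPM ± 508 after IRI (-1.72 ± 0.37, adjusted p = 0.0378). Akr1a1, a reductase of glucuronate, had 4536 CPM ± 1079 and 1667 CPM ± 732 (-1.43 ± 0.32, adjusted p = 0.0416). Of 15 genes of sulfate activation and sulfatases, Slc13a1, the sodium-coupled sulfate carrier of the proximal tubule, fell from 955 CPM ± 359 to 58.9 CPM ± 52.6 (-4.34 ± 0.51, adjusted p = 0.00206), and the groups did not overlap. Arsa, a lysosomal sulfatase, had 19.5 CPM ± 12.4 after sham surgery and 0.259 CPM ± 0.580 after IRI (adjusted p = 0.0412). None of 10 conjugate exporters and none of 12 xenobiotic and tubular regulators passed in this comparison. Median log2 fold changes of the 6 lists were -0.76, 0.21, -0.71, -0.98, 0.02 and -1.05 in the order given, beside 0.15 for all genes. In PMNs after IRI, Slc7a11, the cystine carrier of glutathione synthesis, was the only gene of the 6 lists that passed, and it rose from 69.9 CPM ± 23.3 (n = 5) to 549.8 CPM ± 123 (n = 5; 2.96 ± 0.29, adjusted p = 0.00877). In the comparisons of RIPC with control and their interactions, no gene of the 6 lists passed.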

How the data were processed

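Full-length cDNA was made by poly(A)-primed reverse transcription with template switching, amplified by PCR and sequenced as single-end reads of 50 bases. Per the submitters' processing notes, FastQC, MultiQC, Trim Galore 0.6.4, Salmon 1.0.0 and DESeq2 were used. The authors deposited, for each of 2 files per library, estimated counts and TPM per transcript from Salmon. The study used Gencode release M23, and transcripts were named here from release M21 (GRCm38), which left 884 of 140748 transcripts, with 0.139% to 0.255% of reads, without a gene. Estimated counts were added over transcripts and both files and rounded. TPM was recomputed from them and the effective lengths, with a median deviation of 0.0516% from the deposited TPM. The study removed sex-chromosome and mitochondrial genes, and so did the fits here. None of them was a member.

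Genes that passed filterByExpr were tested in edgeR 4.0.16 (glmQLFit and glmQLFTest, R 4.3.3), with TMM scaling and 1 mean per group, within each cell type for surgery and RIPC and over all 21 libraries for comparisons between cell types. Adjusted p-values are Benjamini-Hochberg values over all genes tested, with a threshold of 0.05. DESeq2 1.42.0 and apeglm 1.24.0 were used for alternatives. The fits were tested on simulated data, in which unchanged genes had an unadjusted p under 0.05 more often than the threshold allows in each comparison simulated, so that counts at an unadjusted p are too high. In the simulated TECs the share of unchanged genes among those called was also above the threshold. Alternatives changed the scaling, the filter on low counts, the files, the length offset, the dispersions, the block, the shared-sequence genes, the test and the libraries. Named were the 12 most abundant members per cell type, the members that passed, the 3 smallest p-values per RIPC comparison and members read in 1 cell type alone. The members and lists were chosen with earlier results of these data known. Leaving out the 2 TEC libraries was chosen after seeing the data. Counting intervals and floors of 3 reads cover counting error only. Promoter sequences are from RefSeq (GRCm38.p6).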

Additional observations from a re-analysis of the deposited data

How the results depend on the processing

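Without a filter on low counts, the numbers of members past the threshold were 20 for IRI against sham surgery in TECs, 3 for RIPC after sham surgery, 1 for RIPC after IRI and 1 for their interaction in TECs, 8 for IRI in PMNs and 6 for the difference of the IRI responses of TECs and PMNs. With the Wald test of DESeq2 they were 17, 2, 2, 2, 6 and 10 in the same order, and 1 for RIPC after IRI and 1 for the interaction in PMNs. DESeq2 with apeglm gave 2 for RIPC after sham surgery in TECs. With at least 10 counts in every library they were 3 for IRI in PMNs and 8 for TECs against PMNs. A fit to all 8 groups gave 0 for IRI in TECs and 2 in PMNs, the groups without RIPC alone gave 0 and those with RIPC alone gave 1 in TECs, and the sham control groups alone gave 0 for TECs against PMNs. The causes of these changes were not tested. Without the filter, 0.137% and 0.18% of all genes passed for RIPC after sham surgery and after IRI in TECs. The Wald test passed 8.62% of all genes for IRI in TECs, 7.77% for IRI in PMNs and 7.54% for the difference of responses. Other shares are given in the sections above. Counts of this section without such a share, among them those with 1 library left out, are not read as results about the members. Leaving out 1 library at a time gave 1 to 13 for IRI in TECs, 0 to 1 for each RIPC comparison and the interaction in TECs, 0 to 2 for IRI in PMNs, 12 to 17 for TECs against PMNs and 0 in the other 4 comparisons. The difference of Sult1b1 between RIPC and control after IRI in TECs, -5.17 on the log2 scale with 1 control library holding the reads, was 4.80 without replicate 1 of the IRI control group and -9.99 without replicate 2 of the IRI group with RIPC, its lowest value. Same-numbered libraries did not deviate together, with correlations of -0.0234 to 0.0304 in PMNs and -0.106 to 0.139 in TECs, so the replicate numbers were not taken as pairs. With the replicate block, 6 members passed for IRI in TECs and 14 for TECs against PMNs, and 0 in the other comparisons. Members near the threshold and those read in few libraries are limited by the number of libraries, and Ugt1a genes by their shared exons.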
